A study of Mus musculus with 18 samples.

Results

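Regulatory T cells (Tregs) reach lymphoid organs and inflamed tissue through G protein-coupled receptors that read gradients of chemokines and of the lipid sphingosine-1-phosphate (S1P). The 9 receptor genes described here, Ccr2, Ccr4, Ccr6, Ccr7, Ccr8, Cxcr3, Cxcr4, Cxcr5 and S1pr1, were picked by name and not by a threshold on a measured value, out of 35865 genes listed under a single name in the RNA table. All 9 had a TPM (a transcript level scaled by the length of the gene and the total of the library) of at least 1 in each library, so all 9 were among the 15240 genes compared. Spleens of 2 WT and 2 Chd8-/- mice gave CD4+ T cells, from which YFP+ Tregs were sorted and sequenced as 1 RNA library each, to ask how loss of the chromatin remodeler CHD8 alters Treg transcription.

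The Chd8-/- libraries carry the genotype label CHD8Flox/FloxFoxp3YFP-Cre, in which a YFP and Cre fusion knocked into the X-linked Foxp3 locus deletes the floxed gene in Foxp3+ cells. The labels of the WT libraries read CHD8flox/floxFoxp3YFP-Cre/+, whereas the study describes its WT mice as carrying unfloxed Chd8 with the same Cre, and the grouping into WT and Chd8-/- follows the names of the libraries. Every library of both genotypes is also labelled with Poly IC injection. The methods of the study do not mention such an injection, and which is right cannot be told from these sources. The mice were littermates 5 to 7 weeks old. The study names mice of both sexes for each genotype. Xist, however, was at 843.3 and 816.8 TPM in the WT and at 701.5 and 500.2 TPM in the Chd8-/- libraries. The Y-linked genes Ddx3y, Uty, Kdm5d and Eif2s3y were listed at 0 in all 4 libraries, so no library shows male expression by these genes. Chd8 itself was at 24.7 and 27.6 TPM in WT and at 14.9 and 11.4 TPM in Chd8-/- Tregs, a log2 fold change of −0.95 (SE 0.29, adjusted p = 0.455). Reads were counted over the whole gene (GRCm38.p6 chr14:52198151-52258042, minus strand, overlapped by Gm26590 and Snord8) and not over the floxed exons alone. The groups did not overlap in Chd8, but the difference did not pass the test.

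Chemokine receptors couple mainly to inhibitory G proteins and turn a ligand gradient into directed movement. CCR7 and CXCR5 guide lymphocytes within lymphoid organs, to the T cell zone and the follicle, and S1PR1 lets them leave for blood and lymph, where S1P is high. CXCR4 responds to CXCL12 and holds cells in the bone marrow. CCR4, CCR8, CCR6, CCR2 and CXCR3 are carried by effector and tissue-seeking T cells, with CXCR3 typical of type 1 inflammation and CCR8 of Tregs in tissues such as skin and in tumours.

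Promoter windows are shown for the 2 receptors with the highest fold changes, Ccr8 and Cxcr4, and for Ccr4, which lay on the opposite side and marks skin-seeking T cells as CCR8 does. Each holds the 250 bases before an annotated start (RefSeq, GRCm38.p6), written 5′ to 3′ on the strand of the gene. They are Ccr8 at chr9:120091883-120092132 (plus), Cxcr4 at chr1:128592300-128592549 (minus) and Ccr4 at chr9:114496545-114496794 (minus), a start that lies inside the annotated span of Ccr4. Capitals mark matches to the motifs searched on both strands.
Ccr8: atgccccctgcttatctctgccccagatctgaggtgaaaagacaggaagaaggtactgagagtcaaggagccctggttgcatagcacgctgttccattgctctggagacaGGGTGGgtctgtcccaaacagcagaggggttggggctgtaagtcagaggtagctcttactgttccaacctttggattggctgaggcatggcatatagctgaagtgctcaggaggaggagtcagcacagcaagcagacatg
Cxcr4: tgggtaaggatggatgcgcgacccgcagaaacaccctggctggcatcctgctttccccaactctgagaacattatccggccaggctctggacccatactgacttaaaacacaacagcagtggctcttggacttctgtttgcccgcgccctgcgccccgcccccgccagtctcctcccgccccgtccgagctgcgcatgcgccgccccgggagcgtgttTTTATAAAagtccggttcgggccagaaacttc
Ccr4: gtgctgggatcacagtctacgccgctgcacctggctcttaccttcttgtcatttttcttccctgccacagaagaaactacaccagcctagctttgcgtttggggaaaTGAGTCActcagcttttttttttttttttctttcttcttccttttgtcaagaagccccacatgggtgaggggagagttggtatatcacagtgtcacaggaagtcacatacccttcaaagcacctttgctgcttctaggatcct
The letters CCACCC were searched as the motif of KLF factors. FOXO factors were represented by GTAAACA, and ETS factors by CGGAAG. Motifs of AP-1, with the letters TGAGTCA, of T-box factors, with GGTGTGA, and of the core promoter, with TATAAA, were added after the values had been seen. The Ccr8 window held 1 KLF match, on the opposite strand 140 bases before the start. The Ccr4 window held 1 AP-1 match 143 bases before the start, and the Cxcr4 window held TATAAA on both strands, in overlapping positions 30 and 32 bases before the start. Among 32851 windows of the same length, 28.1% held the KLF, 3.17% the FOXO, 13.6% the ETS, 4.46% the AP-1, 3.33% the T-box and 12.4% the core promoter letters. The Cxcr4 window was 61.2% G or C with 19 CG pairs, the Ccr4 window 46.4% with 3 pairs and the Ccr8 window 53.6% with 1 pair, where the median window had 52.4% and 6 pairs. Windows were also available for Ccr2, Ccr6 and Cxcr3, and none of the letters searched occurred in these. No window was available for S1pr1, Ccr7 and Cxcr5, so their promoters were not searched. A match describes the letters only.

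The libraries were not alike in other cell types. The 7 Treg markers summed to between 3342.2 and 4005.7 TPM, and Foxp3, the lineage factor of Tregs, was at 202.8 and 215.4 TPM in WT and 232.1 and 205.3 TPM in Chd8-/- Tregs. Of the 7, 2 lay higher in Chd8-/- Tregs without overlap (Ctla4 and Tnfrsf18) and 2 lower (Cd4 and Cd3e). Over all genes compared, these shares were 14.8% and 27.8%. The 11 myeloid markers summed to 350.8 and 410.6 TPM in WT, 62.7 TPM in Chd8-/- replicate 1 and 1778.0 TPM in Chd8-/- replicate 2. Of this last sum, 1360.3 TPM came from Lyz2, which was at 77.1 and 60.5 TPM in WT. Single markers differed: in Chd8-/- replicate 2, Fcer1g was above both WT values (161.5 against 64.4 and 104.3 TPM). Tyrobp was below both there (128.4 against 135.2 and 184.5 TPM). The 6 erythroid markers ran from 8.7 TPM in Chd8-/- replicate 1 to 1989.7 TPM in Chd8-/- replicate 2, with both WT libraries between, at 385.2 and 351.9 TPM. B cell markers, of which 7 of 8 are listed, were likewise lowest in Chd8-/- replicate 1 (45.0 TPM) and highest in Chd8-/- replicate 2 (305.4 TPM), beside 85.7 and 68.5 TPM in WT, and the 8 CD8 and NK markers ran from 60.2 to 96.6 TPM with overlapping groups. Among defining markers, Fcer1g, Cd14 and Adgre1 were listed at 0 in Chd8-/- replicate 1, where Pax5 was at 0 too. Other members of these lists were above 0 in that library, such as Tyrobp (29.5 TPM), Lyz2 (20.0 TPM), Cd79a (17.8 TPM) and Cd79b (17.6 TPM). The Chd8-/- sums thus lie on either side of the WT sums for the myeloid, B cell and erythroid lists. Receptor values are given for each library for that reason. Reads on genes were estimated at 18495000 to 26485000 per library. In such bulk samples, fewer cells of a type and less RNA per cell cannot be told apart.

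**Figure D1:**
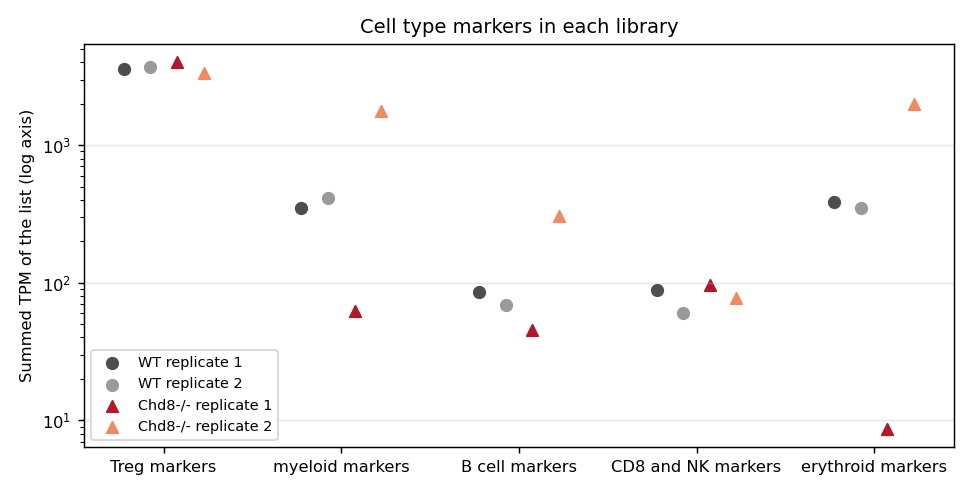
Summed TPM of each cell type marker list (log axis) in the 4 libraries, circles for WT and triangles for Chd8-/-. Chd8-/- replicate 2 is highest and Chd8-/- replicate 1 lowest for myeloid, B cell and erythroid markers, and Treg markers lie within 3342.2 to 4005.7 TPM.

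Across the 9 receptors, the values of the genotypes did not overlap for 6: Ccr8, Cxcr4 and Cxcr3 were higher in both Chd8-/- libraries than in both WT libraries, and S1pr1, Cxcr5 and Ccr4 were lower. Of all genes compared, 42.6% did not overlap, 14.8% higher and 27.8% lower in Chd8-/- Tregs, so the share of lower receptors (3 of 9) is near the background. None of the 9 passed an adjusted p of 0.05 in limma, where 0.0% of all genes did. At an unadjusted p under 0.05 in limma there were 5 of 9 receptors, 3 higher and 2 lower, where 10.2% of all genes (1555) passed. The receptors were chosen with earlier results of these data known, so an excess over all genes is description only. A change of 1 or more on the log2 scale was reached by 2 higher receptors (background 5.12%) and 1 lower (background 11.6%), 3 of 9 where 16.7% of all genes passed in either direction. That count was 2 with the medians of the libraries set equal, and it moved both up and down when single libraries were left out. The share of all genes is not given here for these alternatives. The median log2 fold change of the receptors was −0.17 and that of all genes −0.15 (0.0085 and 0.03 with the medians of the libraries set equal), while the median size of the change was 0.86 for the receptors and 0.40 for all genes. Fold changes are on the log2(TPM + 1) scale, which understates the change of low genes, and with 2 libraries a genotype the smallest p of an exact permutation test is 0.33.

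**Figure D2:**
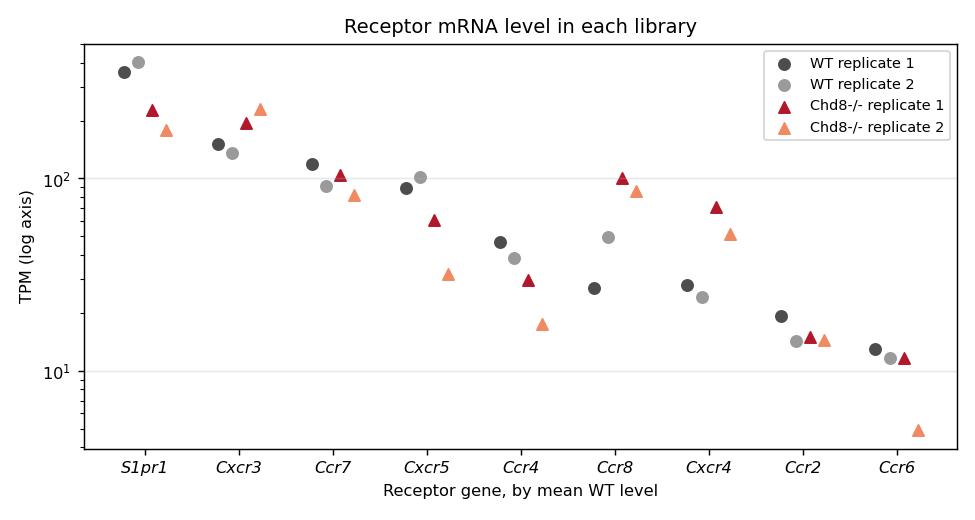
TPM of the 9 receptors (log axis) in each library, ordered by mean WT level, with circles for WT and triangles for Chd8-/-. The triangles lie above the circles for Ccr8, Cxcr4 and Cxcr3, below them for S1pr1, Cxcr5 and Ccr4, and overlap or tie with them in range for Ccr7, Ccr2 and Ccr6, where replicate 2 of Chd8-/- is the lowest value for Ccr7 and Ccr6.

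S1pr1, the receptor for egress from lymphoid organs, was the most abundant of the 9 in WT Tregs, at 356.3 and 401.4 TPM, higher than 97.9% of the genes compared. In Chd8-/- Tregs it was at 225.9 and 177.7 TPM. The groups lie well apart, and the WT mean was 1.88 times the Chd8-/- mean, with a log2 fold change of −0.91 (SE 0.20, adjusted p = 0.406). The gene lies at GRCm38.p6 chr3:115710433-115715055 on the minus strand. Estimated reads on S1pr1 ran from 5682 to 12612 per library, so counting error was small beside the spread between libraries. Without any one library in turn the log2 fold change stayed between −1.09 and −0.74.

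Cxcr5, the receptor for the follicle chemokine CXCL13 and a mark of follicular Tregs, was at 88.8 and 102.1 TPM in WT and at 60.6 and 31.8 TPM in Chd8-/- Tregs. Both Chd8-/- values lie under both WT values, but they differ from each other by more than the WT pair does, and the log2 fold change of −1.10 (SE 0.37, adjusted p = 0.470) was −0.64 without Chd8-/- replicate 2. B cells also carry CXCR5, and their part in these values was not tested. B cell markers summed to 45.0 TPM in Chd8-/- replicate 1 and 305.4 TPM in Chd8-/- replicate 2. Cxcr5 (chr9:44511787-44526444, minus strand) overlaps the end of Bcl9l, and whether strand was used in counting is not given in the sources used here.

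Ccr7, the receptor for CCL19 and CCL21 in the T cell zone, was at 119.2 and 91.5 TPM in WT and at 104.5 and 82.3 TPM in Chd8-/- Tregs. The 4 values interleave, and the log2 fold change was −0.17 (SE 0.25, adjusted p = 0.837). Ccr7 lies at chr11:99144199-99155077 on the minus strand.

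Cxcr4, the CXCL12 receptor, was at 27.9 and 24.2 TPM in WT and at 70.8 and 51.2 TPM in Chd8-/- Tregs. Its Chd8-/- mean was 2.34 times the WT mean, with a log2 fold change of 1.18 (SE 0.27, adjusted p = 0.413) that was higher than that of 96.3% of all genes. Myeloid and B cells carry CXCR4 too, and the part of such cells in these values was not tested. Myeloid markers summed to 62.7 TPM beside the Cxcr4 value of 70.8 TPM and to 1778.0 TPM beside that of 51.2 TPM. Its log2 fold change was 1.41 without Chd8-/- replicate 2 and 0.95 without Chd8-/- replicate 1. The gene lies at chr1:128588199-128592299 on the minus strand.

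Ccr8, a receptor of tissue Tregs, was at 26.8 and 49.4 TPM in WT and at 101.1 and 86.2 TPM in Chd8-/- Tregs. Its log2 fold change of 1.33 (SE 0.36, adjusted p = 0.434) was the largest of the 9 and exceeded that of 97.0% of all genes. The WT libraries differed from each other, with an SD of 0.61 on the log2 scale, and the log2 fold change was 0.90 without WT replicate 1. Estimated reads on Ccr8 (chr9:120092133-120094906, plus strand) were 301 and 592 in WT and 1582 and 1052 in Chd8-/- libraries. The 3 genes nearest to Ccr8 over the 4 libraries, by Euclidean distance of the log2 values, were Ten1 (0.26), Mrps33 (0.32) and Ahsa1 (0.56), and nearest to Cxcr5, the lowest fold change of the 9, were H2-T24 (0.18), Degs2 (0.19) and Nsg2 (0.28).

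Cxcr3, the receptor for CXCL9 and CXCL10, was at 151.5 and 135.5 TPM in WT and at 194.4 and 228.7 TPM in Chd8-/- Tregs. The 2 Chd8-/- values lie above the WT pair, by a log2 fold change of 0.55 (SE 0.19, adjusted p = 0.471). The difference is smaller than for Ccr8 and Cxcr4 and stayed between 0.44 and 0.67 with each library left out. Tbx21, which encodes T-bet, an activator of Cxcr3, was at 12.9 and 5.0 TPM in WT and at 2.7 and 1.9 TPM in Chd8-/- Tregs, the opposite side from Cxcr3. Cxcr3 lies at chrX:101731535-101734147 on the minus strand.

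Ccr4, the receptor for CCL17 and CCL22, was at 46.9 and 38.5 TPM in WT and at 29.7 and 17.6 TPM in Chd8-/- Tregs, so that it lay lower where Ccr8 lay higher. Its log2 fold change was −0.86 (SE 0.35, adjusted p = 0.510) and ran from −1.23 without Chd8-/- replicate 1 to −0.50 without Chd8-/- replicate 2. Ccr4 lies at chr9:114490316-114505476 on the minus strand.

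Ccr6, the CCL20 receptor, was at 13.0 and 11.7 TPM in WT and at 11.7 and 4.9 TPM in Chd8-/- Tregs, where the first Chd8-/- value ties with a WT value. Its log2 fold change of −0.62 (SE 0.49, adjusted p = 0.699) was −0.07 without Chd8-/- replicate 2, the library with 227 estimated reads on Ccr6, the lowest read number of the set. Ccr6 lies at chr17:8236041-8258519 on the plus strand and overlaps Gm33799.

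Ccr2, the CCL2 receptor of monocytes and effector T cells, was at 19.2 and 14.3 TPM in WT and at 14.9 and 14.4 TPM in Chd8-/- Tregs. The genotypes overlapped, and the log2 fold change was −0.17 (SE 0.30, adjusted p = 0.869). The myeloid marker sums of the Chd8-/- libraries were 62.7 and 1778.0 TPM, and the part of myeloid cells in the Ccr2 values was not tested. Ccr2 lies at chr9:124101918-124109140 on the plus strand, and how reads that also match a related gene were counted is not given in the sources used here.

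**Figure D3:**
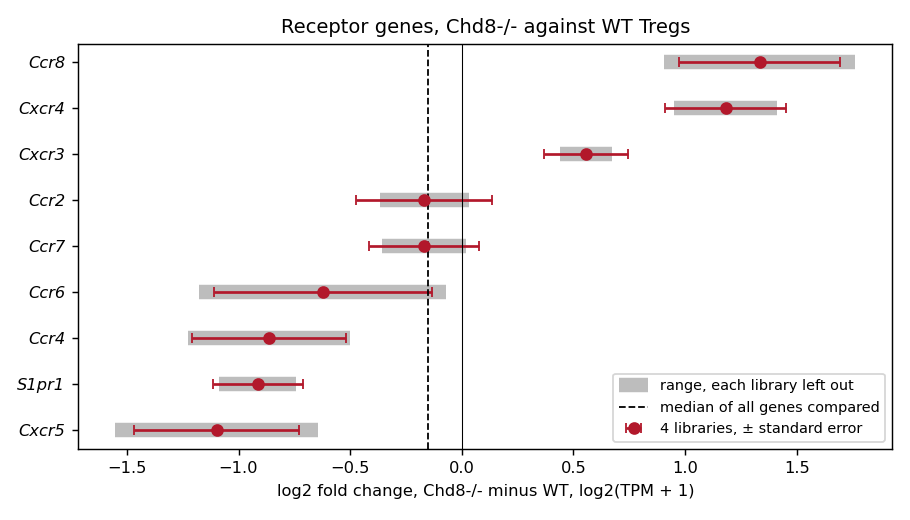
Log2 fold change of each receptor, Chd8-/- minus WT on the log2(TPM + 1) scale, as points with standard errors, with grey bands for the range when each library is left out and a dashed line at the median of all genes. Ccr8, Cxcr4 and Cxcr3 keep a positive band and Ccr6, Ccr4, S1pr1 and Cxcr5 a negative band, while the bands of Ccr2 and Ccr7 cross 0.

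Because TPM is scaled by gene length, levels of different receptors can be set side by side, provided that reads cover the whole transcript. The methods of the study name a Next GEM assay beside an Illumina RNA-Seq kit, and coverage along the transcripts was not tested. By mean TPM the order in WT Tregs was S1pr1, Cxcr3, Ccr7, Cxcr5, Ccr4, Ccr8, Cxcr4, Ccr2 and Ccr6. The replicate ranges overlapped between Ccr7 and Cxcr5, between Ccr4 and Ccr8 and between Ccr8 and Cxcr4, so these neighbours do not differ beyond their spread. In Chd8-/- Tregs the order was Cxcr3, S1pr1, Ccr8, Ccr7, Cxcr4, Cxcr5, Ccr4, Ccr2 and Ccr6, with overlapping ranges for Cxcr3 and S1pr1, for Ccr8 and Ccr7 and for Cxcr4 and Cxcr5. S1pr1 took 41.9% and 46.2% of the summed receptor TPM in WT and 27.8% and 25.6% in Chd8-/- Tregs. Ccr8 took 3.15% and 5.69% in WT and 12.4% in each Chd8-/- library, and Cxcr3 17.8% and 15.6% against 23.9% and 32.9%. The sum of all 9 was 849.6 and 868.6 TPM in WT and 813.6 and 694.8 TPM in Chd8-/- Tregs.

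**Figure D4:**
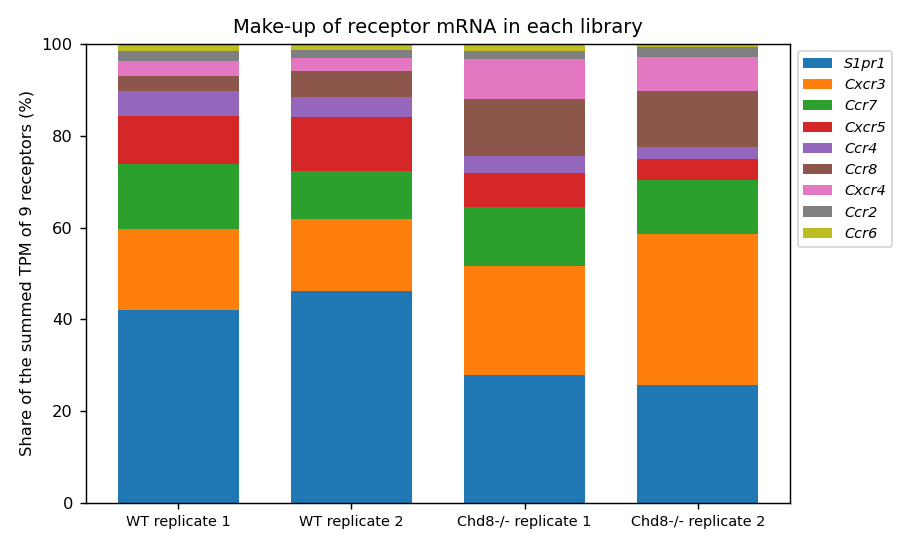
Share of each receptor in the summed TPM of the 9 receptors (%), 1 stacked bar per library. S1pr1 fills 41.9% and 46.2% of the WT bars and 27.8% and 25.6% of the Chd8-/- bars, and the Ccr8, Cxcr4 and Cxcr3 segments are wider in both Chd8-/- bars.

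A ratio of 2 receptors within a library does not depend on the scaling of that library. The ratio of Cxcr3 to S1pr1 was 0.425 and 0.338 in WT and 0.861 and 1.29 in Chd8-/- Tregs. The ratio of Cxcr4 to Cxcr5 was 0.314 and 0.237 in WT and 1.17 and 1.61 in Chd8-/- Tregs, so that the order of these receptors was turned in both Chd8-/- libraries. The ratio of Ccr8 to Ccr4, both carried by skin-seeking T cells, was 0.571 and 1.28 in WT and 3.40 and 4.90 in Chd8-/- Tregs. None of these ratios overlapped between the genotypes, and they were chosen after the values had been seen.

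Of 15 other chemokine receptors, 6 were high enough to be compared, none passed the adjusted p, and the genotypes did not overlap for 2, both lower in the Chd8-/- libraries. That is 33.3% of the 6, where 42.6% of all genes did not overlap. The median over the 6 was −0.47 on the log2 scale. Ccr3, the eotaxin receptor, was at 8.2 and 11.8 TPM in WT and at 0.3 TPM in each Chd8-/- library (log2 fold change −3.06, SE 0.42, adjusted p = 0.374). Cxcr6, the CXCL16 receptor of tissue-resident T cells, was at 43.1 and 51.5 TPM in WT and at 31.5 and 33.7 TPM in Chd8-/- Tregs. Ccr9, the gut-homing receptor, was at 12.9 and 8.9 TPM in WT and at 6.4 and 9.4 TPM in Chd8-/- Tregs. The part of the myeloid markers in these values was not tested.

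Of 16 other receptors for S1P and lipid attractants, 12 were compared and none passed the adjusted p. The genotypes did not overlap for 2 higher and 2 lower genes (14.8% and 27.8% over all genes), and the median log2 fold change was −0.17, or 0.03 under quantile normalization. S1pr4, the other abundant S1P receptor of these cells, was at 101.6 and 111.1 TPM in WT and at 106.2 and 79.0 TPM in Chd8-/- Tregs, and its ratio to S1pr1 was 0.285 and 0.277 in WT and 0.470 and 0.445 in Chd8-/- Tregs. S1pr2, which restrains migration, was at 7.8 and 8.2 TPM in WT, at 6.7 TPM in Chd8-/- replicate 1 and listed at 0 in Chd8-/- replicate 2. Gpr183 (EBI2), an oxysterol receptor that draws cells to the edge of the follicle, was at 138.3 and 141.2 TPM in WT and at 220.2 and 231.0 TPM in Chd8-/- Tregs (log2 fold change 0.69, SE 0.16, adjusted p = 0.424). Gpr18 was at 138.0 and 157.9 TPM in WT and at 86.2 and 50.4 TPM in Chd8-/- Tregs (log2 fold change −1.15, SE 0.32, adjusted p = 0.441). Ptger2, a prostaglandin E2 receptor, was at 92.1 and 70.6 TPM in WT and at 111.3 and 115.1 TPM in Chd8-/- Tregs. Of the 12 genes of S1P metabolism and transport, 10 were compared and none passed. The genotypes did not overlap for 2, both lower in Chd8-/- Tregs. That is 20.0% of the 10, where 42.6% of all genes did not overlap and 27.8% lay lower. The 2 were Plpp3, at 2.1 and 6.5 TPM in WT and listed at 0 in Chd8-/- Tregs, and the ceramidase Asah1, at 10.2 and 8.7 against 3.8 and 8.3 TPM.

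Chemokine and S1P receptors are switched off by G protein-coupled receptor kinases, arrestins, RGS proteins and, for S1PR1, the surface protein CD69. Of 15 such genes 14 were compared, none passed, 3 lay higher and 6 lower without overlap (14.8% and 27.8% over all genes), and the median log2 fold change was −0.32. It was −0.55 without Chd8-/- replicate 1, −0.16 without WT replicate 1 and −0.14 with the medians of the libraries set equal. Rgs1, which dampens chemokine signals in activated lymphocytes, was at 480.6 and 554.4 TPM in WT and at 1091.7 and 838.1 TPM in Chd8-/- Tregs (log2 fold change 0.89, SE 0.20, adjusted p = 0.410). Rgs2 was at 25.6 and 32.3 TPM in WT and at 14.1 and 10.0 TPM in Chd8-/- Tregs, and Rgs14 at 54.5 and 52.1 against 33.7 and 16.4 TPM. The RGS genes thus lay on both sides. Arrb1 (β-arrestin 1) was at 9.3 and 7.9 TPM in WT and at 4.9 and 4.7 TPM in Chd8-/- Tregs. Cd69, which pulls S1PR1 from the surface, was at 71.0 and 69.1 TPM in WT and on either side of them in Chd8-/- Tregs, at 106.2 and 51.2 TPM. Among 22 G protein and migration genes compared of 23, none passed. Their median was −0.14 (0.03 with the medians of the libraries set equal), close to that of all genes. Without overlap, 5 lay higher and 7 lower (14.8% and 27.8% over all genes). The widest of these were Pik3r5, the regulator of PI3Kγ (55.2 and 62.8 against 29.5 and 41.3 TPM), Gnaq (30.1 and 39.3 against 45.0 and 65.4 TPM), Arhgef1 (112.1 and 125.3 against 87.0 and 86.6 TPM) and Was (172.8 and 162.7 against 145.8 and 105.3 TPM), WT values first.

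Of 23 transcription factors that act on these receptors or on T cell homing states, all 23 were compared, none passed, 6 lay higher and 11 lower in Chd8-/- Tregs (14.8% and 27.8% over all genes), and the median log2 fold change was −0.24, or −0.06 with the medians of the libraries set equal. Klf2, the activator of S1pr1, was at 158.8 and 164.5 TPM in WT and at 90.0 and 98.2 TPM in Chd8-/- Tregs (log2 fold change −0.78, SE 0.18, adjusted p = 0.409). Foxo1, which acts upstream of Klf2, was at 357.8 and 368.8 TPM in WT and at 210.8 and 189.3 TPM in Chd8-/- Tregs (log2 fold change −0.86, SE 0.16, adjusted p = 0.402). The ratio of Klf2 to S1pr1 was 0.446 and 0.410 in WT and 0.398 and 0.553 in Chd8-/- Tregs, so it overlapped between the genotypes. Bach2, which holds T cells in a resting state, was at 19.2 and 24.6 TPM in WT and at 7.0 and 8.1 TPM in Chd8-/- Tregs. Batf, a factor of tissue Tregs, was at 231.1 and 207.1 TPM in WT and at 502.4 and 784.6 TPM in Chd8-/- Tregs (log2 fold change 1.52, SE 0.27, adjusted p = 0.402), and Prdm1 (BLIMP1), of effector Tregs, at 5.3 and 6.6 against 11.4 and 17.6 TPM. Bcl6, the factor of CXCR5+ follicular cells, was at 26.2 and 47.3 TPM in WT and at 22.2 and 39.7 TPM in Chd8-/- Tregs, with overlapping groups.

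Central and effector Tregs use these receptors differently, the former in lymphoid organs and the latter in tissue. Of 8 central Treg genes, 5 lay lower and 2 higher in both Chd8-/- libraries, with none past the adjusted p and a median log2 fold change of −0.57. Klf2 and Bach2, given above, are among the 5 lower genes. Il7r, the interleukin-7 receptor, lay on the other side, at 149.7 and 126.7 TPM in WT and 504.5 and 366.8 TPM in Chd8-/- Tregs. Of 12 effector Treg genes, 9 lay higher and 2 lower, with none past the adjusted p and a median of 0.75. Over all genes compared, 14.8% lay higher and 27.8% lower. Itgae (CD103), an integrin that binds E-cadherin on epithelium, was at 23.0 and 26.8 TPM in WT and at 120.4 and 99.2 TPM in Chd8-/- Tregs (log2 fold change 2.09, SE 0.23, adjusted p = 0.374). Icos was at 110.0 and 110.3 TPM in WT and at 254.0 and 212.5 TPM in Chd8-/- Tregs. The 2 lower genes, named after their values were seen, were Klrg1 (101.5 and 82.0 against 42.4 and 53.5 TPM) and Maf (247.9 and 204.0 against 195.3 and 148.0 TPM). Batf and Prdm1 belong to the effector list as well.

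**Figure D5:**
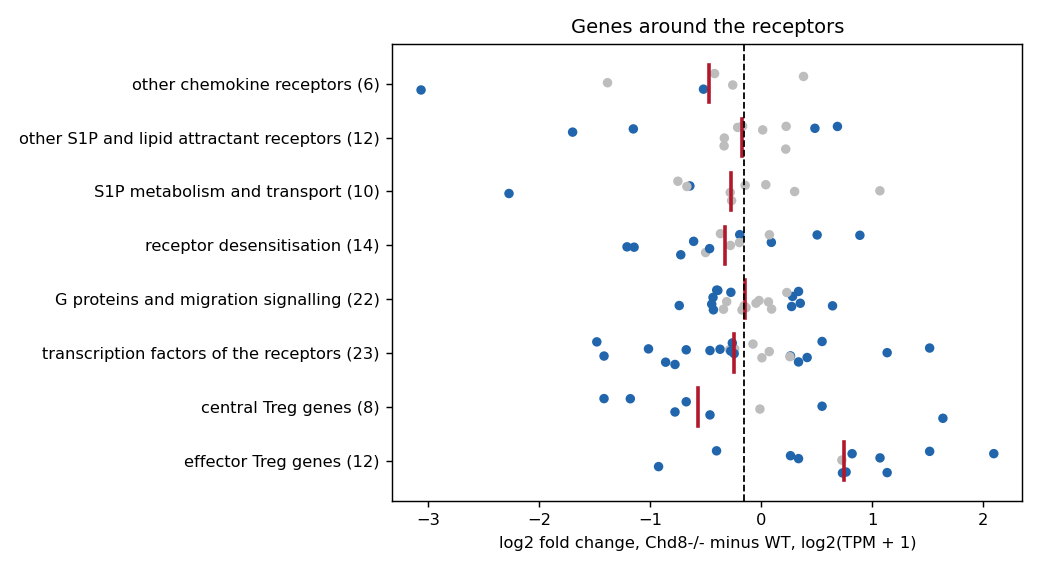
Log2 fold change (Chd8-/- minus WT, log2(TPM + 1) scale) of the genes compared in each list, blue where the genotypes do not overlap and grey where they do, with a red bar at the list's median, a dashed line at the median of all genes (−0.15) and the number of genes in brackets. The effector Treg genes have a median of 0.75 and the central Treg genes one of −0.57.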

How the data were processed

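RNA-seq of sorted splenic YFP+ Tregs from 2 WT and 2 Chd8-/- mice was used. The authors trimmed reads (Trim Galore 0.4.2, cutadapt 1.9.1), aligned them to mm10 (STAR 2.6.1e), removed duplicates, counted reads on RefSeq genes (featureCounts 1.6.2) and deposited TPM rounded to 0.1. The table lists 35869 names, of which 4 that repeat were dropped. Genes at 1 TPM or above in at least 2 libraries were compared as log2(TPM + 1) with limma 3.58.1 in R 4.3.3 (two-sided, moderated with a mean-variance trend, p-values adjusted by Benjamini-Hochberg over all genes, call at 0.05). This was tested on simulated data. Reads behind the TPM were estimated from their step and the RefSeq exon length. Counting error is only part of the error. Receptors and lists were chosen with earlier results of these data known. Named genes are the 9 receptors, Chd8, up to 4 genes per list by fold change among those whose groups do not overlap, and genes tied to a receptor by textbook knowledge. Some genes that this rule names are not reported here. ATAC-seq and CHIP-seq tables (mm39) were not used. The alternatives tried were pseudocounts, filters, scalings, a replicate block, no trend, and each library left out.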

Additional observations from a re-analysis of the deposited data

How the results depend on the processing

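The 9 receptors gave 108 values under 12 alternatives each, and 102 kept the direction reported. The 6 others were Ccr2 under quantile normalization (log2 fold change 0.0046) and with library medians set equal (0.0102), and without WT replicate 1 (0.0324), and Ccr7, which ran from −0.36 to 0.02 with each library left out, with library medians set equal (0.0085), without WT replicate 1 (0.0193) and without Chd8-/- replicate 2 (0.0008). The cause was not tested. No receptor passed the adjusted p under any alternative, with 0.204 the smallest. The genotypes did not overlap for Ccr8, Cxcr3, Cxcr4, Ccr4, Cxcr5 and S1pr1 under quantile normalization, where 42.2% of all genes did not, and with library medians set equal, where 43.9% did not. With library medians set equal, which moves the median of all genes from −0.15 to 0.03, the median of the receptors was 0.0085, and it ran from −0.37 to 0.02 with each library left out. With a mean TPM of at least 5, 2 of 11351 genes were called, Mir7649 and Cdkn1a, and the cause was not tested. Cd69 ran from −0.44 to 0.59 and Bcl6 from −0.65 to 0.18 with each library left out, with Bcl6 at 0.167 without Chd8-/- replicate 1. Without Chd8-/- replicate 2 the median of the other S1P and lipid receptors was 0.09, that of the chemokine ligands −0.33, that of S1P metabolism −0.02 and that of the G protein genes 0.01. The median of the other chemokine receptors was −0.74 without WT replicate 2 and −0.29 with library medians set equal.

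Same-numbered libraries did not deviate together (correlation over genes −0.012), so the numbers were not treated as pairs. With a replicate block, S1pr1 was at −0.91 (adjusted p = 0.552), and 0 genes were called. Settings meant for ATAC-seq and CHIP-seq peaks were not run, since no annotation of mm39 was used here. With 2 mice per genotype and 1 library each, the spread between libraries and not the number of reads limits these comparisons.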

Other observations

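Of 31 chemokine ligand genes, 14 were compared between WT and Chd8-/- Tregs and none passed the adjusted p in limma. The genotypes did not overlap for 1 higher and 4 lower genes (14.8% and 27.8% over all genes), and the median log2 fold change was 0.48. As a share of the 14 this was 35.7%, where 42.6% of all genes did not overlap. Ccl5, a chemokine made by activated T cells, was at 232.0 and 157.6 TPM in WT, at 10.1 TPM in Chd8-/- replicate 1 and at 157.0 TPM in Chd8-/- replicate 2. Xcl1 was at 27.1 and 21.3 TPM in WT, at 18.7 TPM in Chd8-/- replicate 1 and listed at 0 in Chd8-/- replicate 2. Ccl17, a ligand of CCR4, was at 2.0 and 1.4 TPM in WT and listed at 0 in both Chd8-/- libraries, and Ccl24 was at 0.7 TPM and 0 in WT and at 1.0 and 20.5 TPM in Chd8-/- Tregs. Ccl8 reached 194.7 TPM and Cxcl9 79.5 TPM in Chd8-/- replicate 2, the library with the highest myeloid marker sum (1778.0 TPM). These 2 genes were named after their values were seen, and the part of other cells in them was not tested.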
